A study of Mus musculus with 9 samples.

Results

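The transcripts of 10 ligand and receptor genes of the TGF-β and activin pathway were followed in mouse natural killer (NK) cells grown from bone marrow. They were taken by symbol from a table of 16876 genes: the ligands Tgfb1, Tgfb2 and Tgfb3, the type I receptors Tgfbr1, Acvr1 and Acvr1b, the type II receptors Tgfbr2, Acvr2a and Bmpr2, and the coreceptor Tgfbr3. All 10 symbols were in the table, each in 1 row, and all 10 passed the filter on low counts, which left 12212 genes. The cells came from the femurs of C57BL/6 mice and were grown for 4 days in IL-15 (50 ng/mL), SCF (30 ng/mL), Flt3L (10 ng/mL) and IL-7 (1 ng/mL), then for a further week in IL-2 (20 ng/mL) with the same dose of IL-15. Poly-A RNA of 9 libraries in 3 groups of 3 was sequenced as 100 bp pairs. The Ctrl group had no treatment, the TGFb group had 3 h of TGF-β1 (5 ng/mL), and the SIS3+TGFb group was kept for 3 h in the Smad3 inhibitor SIS3 (10 µM) ahead of the same TGF-β1 treatment. Sample titles of that group mention only SIS3, while its treatment text gives both agents. There is no group with SIS3 only, and a solvent control is not mentioned in the labels. Whether replicates are separate mice or cultures is not stated, so p-values reflect the spread among these libraries, which may be technical.

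TGF-β ligands are secreted as latent dimers that must be released before they act. An active dimer binds the type II receptor TGFBR2, which recruits and phosphorylates the type I receptor TGFBR1 (ALK5), and this kinase activates SMAD2 and SMAD3. Activins use the type II receptor ACVR2A and the type I receptor ACVR1B (ALK4), which also acts on SMAD2 and SMAD3, whereas BMPR2 and ACVR1 (ALK2) serve mainly bone morphogenetic proteins and act on SMAD1 and SMAD5. In NK cells TGF-β restrains killing and cytokine production, and activin acts on them in a related way.

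The libraries held 15714973 to 16718673 expected counts (estimated reads per gene). Values per library are CPM, which scales counts to the library's total, with TMM factors. A gene rose or fell where edgeR's quasi-likelihood test gave an adjusted p below 0.05 over the 12212 genes tested. The 14 NK cell markers summed to 20720 to 21840 CPM in Ctrl, 15860 to 17290 in TGFb and 17230 to 17470 in SIS3+TGFb. Every treated library was below every Ctrl library in this sum, and the part of this in the results was not tested. Gzmb (8030 to 8690 CPM in Ctrl, 5380 to 5970 in TGFb) and Prf1 (6110 to 6420 and 4600 to 5310) were the largest of the 14. Nkg7 overlapped between Ctrl and TGFb. Tbx21 was higher in SIS3+TGFb (27.6 to 28 CPM) than in Ctrl (20.1 to 22.1), so not all markers followed the sum. The sums over the 9 libraries were 916 to 1530 CPM for 12 macrophage and monocyte markers, 446 to 874 CPM for 10 dendritic cell markers, 555 to 653 CPM for mast cell and basophil markers, 1296 to 1687 CPM for 8 T cell markers (mostly Thy1) and 12.7 to 60.9 CPM for 9 megakaryocyte and platelet markers. Stromal and endothelial markers reached 1041 to 1378 CPM almost wholly through Pecam1, with Col1a1 at 0 in 7 of the libraries. TGFb replicate 3 stood apart with 12.7 CPM of megakaryocyte and platelet markers, where the other 8 libraries held 39.8 to 60.9 CPM. It was also lowest of its group in macrophage (916 CPM) and dendritic cell markers (446 CPM). Its mast cell and basophil markers summed to 591 CPM, between the other libraries of its group (575 and 642 CPM). Within that list Fcer1a was at 0 CPM and Prss34 at 3.46 CPM, while Mcpt8 was at 233 CPM, the highest of its group. SIS3+TGFb replicate 3 had 1479 CPM of macrophage and monocyte markers against 956 and 1031 CPM in the other libraries of its group, and 874 CPM of dendritic cell markers against 501 and 544 CPM. In bulk RNA, fewer cells of a type and less RNA per cell cannot be told apart.

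Scaled by transcript length, Tgfb1 and Tgfbr2 were far above the other 8 genes in every library. CPM per kb of the longest protein-coding transcript (GENCODE M21) is used wherever levels of different genes are compared. In Ctrl, Tgfb1 stood at 178, 176 and 163 CPM per kb and Tgfbr2 at 58.4, 53.8 and 54.2 CPM per kb. Tgfbr1 was next at 6.02, 6.66 and 6.73 CPM per kb, so that the type II receptor transcript of the TGF-β pair was at 8.05 to 9.71 times the level of the type I transcript. Below these came Acvr1 (3.35 ± 0.239 CPM per kb, mean ± SD, n = 3), Acvr1b (1.61 ± 0.27), Bmpr2 (1.46 ± 0.0445), Acvr2a (1.05 ± 0.072), Tgfbr3 (0.573 ± 0.181), Tgfb3 (0.159 ± 0.0648) and Tgfb2 (0.145 ± 0.0188). The Ctrl libraries of neighbours in this order overlapped for Acvr1b and Bmpr2 and for Tgfb3 and Tgfb2, and lay apart for the other neighbours. The length used matters for Tgfb1, whose 1 protein-coding transcript spans 2.17 kb while all its annotated exons together span 5.04 kb. Over all exons its Ctrl level was 74.4 CPM per kb, still the highest, and its ratio to Tgfbr2 was 1.36 instead of 3.11.

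Tgfb1 made up nearly all of the TGF-β ligand transcript in each group. Its share of the summed level per kb of the 3 ligands was 99.8% in each Ctrl library, 99.3% to 99.4% in TGFb and 99.4% in SIS3+TGFb. Among the 3 type II receptors Tgfbr2 held 94.8% to 96% of the summed level per kb in the 9 libraries. Of the receptors outside this set, Acvrl1 (ALK1), a type I receptor best known from endothelium, stood at 1.28 ± 0.144 CPM per kb in Ctrl, and Bmpr1a, a type I receptor for bone morphogenetic proteins, at 0.301 ± 0.0396. Acvr2b, the second activin type II receptor, was at 0.0914 ± 0.0425 CPM per kb and did not pass the filter on low counts.

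**Figure D1:**
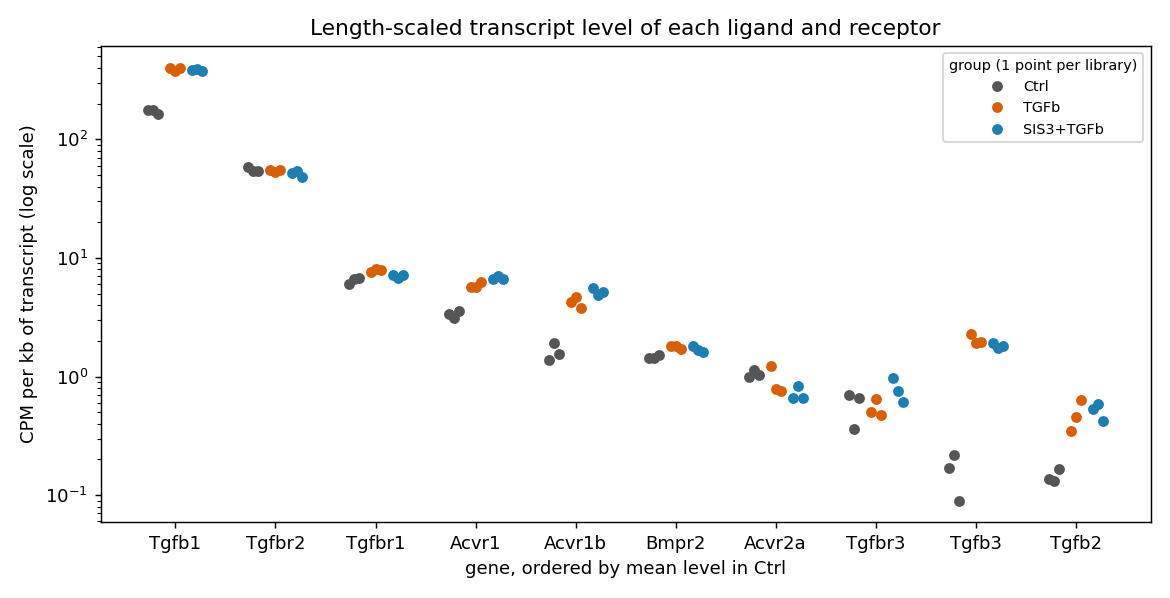
Length-scaled level of each ligand and receptor transcript. The vertical axis is CPM per kb of the longest protein-coding transcript on a log scale, each point is 1 library, and genes are ordered by their Ctrl mean. Tgfb1 and Tgfbr2 lie above all others, and Tgfb3 moves from 0.0899 to 0.219 in Ctrl to 1.93 to 2.29 in TGFb.

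The question of TGFb versus Ctrl was how these transcripts responded to TGF-β1 within 3 h. Of the 10 genes, 7 rose and none fell, where 34.3% of all genes tested changed, 17.9% upwards and 16.4% downwards. The 3 ligands and the 3 type I receptors all rose, and so did Bmpr2, while Tgfbr2, Acvr2a and Tgfbr3 did not pass. The same 7 genes were those whose libraries did not overlap between the groups, a pattern seen for 45% of all genes tested. The median log2 change of the 10 was 0.54, against 0 over all genes tested.

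Tgfb1 encodes TGF-β1, the same protein as the one added (Entrez 21803, chromosome 7, 25687002 to 25705077, plus strand, in GRCm38). Its level was 387, 382 and 356 CPM in Ctrl, 876, 824 and 862 CPM in TGFb, and 841, 847 and 825 CPM in SIS3+TGFb. All 6 treated libraries were above all Ctrl libraries, and the ranges of the treated groups overlapped. The rise with TGF-β1 was 2.28-fold (95% interval 2.15 to 2.41, log2 1.19 ± 0.0396 SE, adjusted p = 1.9e-12 by edgeR). Of all genes tested 370 had a larger change in either direction, and in Ctrl it was already above 96.8% of the genes tested by CPM. TGFb replicate 3, low in megakaryocyte and platelet markers, stood at 862 CPM, between the other libraries of its group, and SIS3+TGFb replicate 3, high in macrophage markers, at 825 CPM, the lowest of its group.

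Tgfb3 encodes a ligand of the same family, known for its part in palate closure (Entrez 21809, chromosome 12, 86056745 to 86079041, minus strand). It rested on 5 to 12 counts per library in Ctrl, 99 to 126 in TGFb and 101 to 109 in SIS3+TGFb. Its level was 0.568, 0.739 and 0.304 CPM in Ctrl, 7.76, 6.53 and 6.59 CPM in TGFb, and 6.44, 5.87 and 6.15 CPM in SIS3+TGFb. It went from hardly detected to a low but steady level in all treated libraries. The rise with TGF-β1 was 12.8-fold (95% interval 9.21 to 17.8, log2 3.68 ± 0.224, adjusted p = 2.3e-09 by edgeR), the largest of the 10, and 21 of all genes tested had a larger change in either direction. Its share of the ligand transcripts per kb was 0.0549% to 0.124% in Ctrl and 0.488% to 0.566% in TGFb. Annotated genes on the opposite strand, Gm48008 and Gm37804, cover 7.6% and 4.82% of its exons, and the labels' protocol names no step that keeps strand, so their reads cannot be told apart there.

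Tgfb2, the ligand that depends most on the coreceptor TGFBR3 for binding (Entrez 21808, chromosome 1, 186622792 to 186705989, minus strand), was scarce in all groups. It stood at 0.694, 0.678 and 0.852 CPM in Ctrl, 1.79, 2.32 and 3.26 CPM in TGFb, and 2.72, 3.02 and 2.15 CPM in SIS3+TGFb, from 11 to 14, 29 to 49 and 37 to 52 counts. The treated libraries were all above Ctrl but spread widely among themselves. The rise with TGF-β1 was 3.27-fold (95% interval 2.12 to 5.04, log2 1.71 ± 0.293, adjusted p = 0.00025 by edgeR).

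Acvr1b encodes ALK4, the activin type I receptor, whose kinase domain is closely related to that of TGFBR1 (Entrez 11479, chromosome 15, 101174067 to 101213684, plus strand). It stood at 6.12, 8.44 and 6.82 CPM in Ctrl, 18.7, 20.7 and 16.7 CPM in TGFb, and 24.6, 21.3 and 22.8 CPM in SIS3+TGFb. The 3 groups did not overlap and lay in that order. Its rise of 2.63-fold with TGF-β1 (95% interval 2.21 to 3.12, log2 1.39 ± 0.116, adjusted p = 1e-07 by edgeR) was the largest among the receptors. Acvr1, which encodes ALK2 (Entrez 11477, chromosome 2, 58388644 to 58567157, minus strand), stood at 11, 10.2 and 11.8 CPM in Ctrl, 18.7, 18.7 and 20.6 CPM in TGFb, and 21.7, 23.4 and 21.9 CPM in SIS3+TGFb. Its groups also lay apart in the same order, and its rise with TGF-β1 was 1.75-fold (95% interval 1.55 to 1.97, log2 0.81 ± 0.0805, adjusted p = 8.3e-07 by edgeR).

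Tgfbr1, the type I receptor for TGF-β itself (Entrez 21812, chromosome 4, 47353222 to 47414931, plus strand), moved much less. It stood at 34.6, 38.3 and 38.8 CPM in Ctrl, 43.4, 46.1 and 45.3 CPM in TGFb, and 41.1, 38.9 and 41 CPM in SIS3+TGFb. The TGFb libraries were above both other groups, which lay close to each other without overlapping. The rise with TGF-β1 was 1.21-fold (95% interval 1.11 to 1.31, log2 0.27 ± 0.056, adjusted p = 0.0013 by edgeR). Since the other type I receptors rose by more, the share of Tgfbr1 in the summed level per kb of the 3 type I receptors was 55.9% to 57% in Ctrl and 43.2% to 44% in TGFb, while that of Acvr1b was 12.9% to 16.4% and 21.1% to 25.5%. The share of Acvr1 overlapped between these groups, at 26.6% to 31.2% and 30.8% to 34.9%.

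Among the type II receptors the TGF-β receptor stayed within a narrow range. Tgfbr2 (Entrez 21813, chromosome 9, 116084293 to 116175360, minus strand) stood at 473, 435 and 439 CPM in Ctrl, 449, 426 and 444 CPM in TGFb, and 423, 435 and 393 CPM in SIS3+TGFb. The libraries of the Ctrl and TGFb groups overlapped, and the interval of the change with TGF-β1 ran from 0.918-fold to 1.05-fold (log2 -0.03 ± 0.0442, adjusted p = 0.65 by edgeR). Bmpr2 (Entrez 12168, chromosome 1, 59763400 to 59879014, plus strand) rose 1.21-fold (95% interval 1.1 to 1.34, adjusted p = 0.004 by edgeR), from 18.4, 18.5 and 19.5 CPM to 23.3, 23.3 and 21.9 CPM. Acvr2a, the activin type II receptor (Entrez 11480, chromosome 2, 48814109 to 48903269, plus strand), stood at 5.61, 6.41 and 5.84 CPM in Ctrl and 7.02, 4.45 and 4.26 CPM in TGFb. TGFb replicate 1 was above all Ctrl libraries and the other TGFb libraries below them, and the difference did not pass (log2 -0.18 ± 0.181, adjusted p = 0.49 by edgeR). The deposited counts of Acvr2a are not whole numbers in any library, and 7.84% of its exonic bases overlap exons of Orc4 on the opposite strand.

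Tgfbr3 encodes betaglycan, which presents TGF-β ligands to the signalling receptors and also binds inhibin (Entrez 21814, chromosome 5, 107106570 to 107289629, minus strand). It stood at 4.23, 2.22 and 4.02 CPM in Ctrl, 3.08, 3.9 and 2.86 CPM in TGFb, and 5.97, 4.59 and 3.72 CPM in SIS3+TGFb. The groups overlapped, and with 36 to 101 counts per library the interval of the change with TGF-β1 was wide, from 0.657-fold to 1.36-fold (log2 -0.08 ± 0.246, adjusted p = 0.83 by edgeR).

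**Figure D2:**
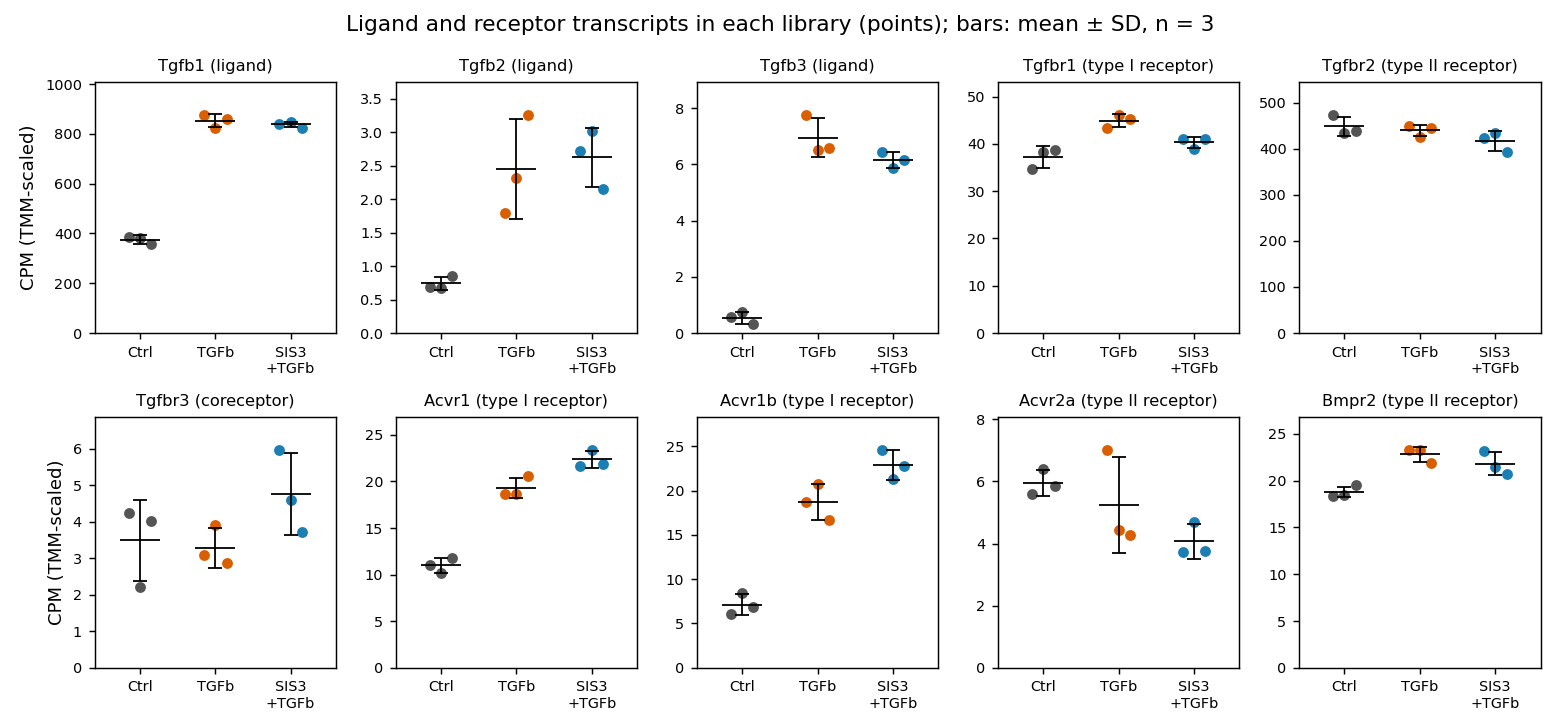
Level of each of the 10 genes in CPM with TMM scaling, each vertical axis starting at 0. Points are libraries and bars give the mean ± SD (n = 3). Tgfb1 stands at 356 to 387 CPM in Ctrl and 824 to 876 CPM in TGFb, while Tgfbr2 spans 393 to 473 CPM over all groups.

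RefSeq promoter windows for GRCm38.p6, from 250 bases before to 50 after the annotated start, were matched for 8 of the 10 genes, and Tgfb3 and Tgfbr3 had no window in the table used. The windows of the 4 matched genes that rose by more than 1.5-fold are printed 5′ to 3′ on the gene's strand, since these are the genes that moved together with TGF-β1. Capitals mark matches to the CAGA box CAGACA (the motif bound by SMAD3 and SMAD4) or to the TATA box TATAAA.
Tgfb1, chr7:25686752-25687051, plus strand: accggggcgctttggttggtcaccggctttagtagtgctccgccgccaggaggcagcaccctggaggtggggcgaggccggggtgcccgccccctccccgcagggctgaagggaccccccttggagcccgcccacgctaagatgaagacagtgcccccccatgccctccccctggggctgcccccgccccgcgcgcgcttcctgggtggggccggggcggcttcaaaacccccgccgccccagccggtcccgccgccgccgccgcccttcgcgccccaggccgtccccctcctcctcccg
Tgfb2, chr1:186705940-186706239, minus strand: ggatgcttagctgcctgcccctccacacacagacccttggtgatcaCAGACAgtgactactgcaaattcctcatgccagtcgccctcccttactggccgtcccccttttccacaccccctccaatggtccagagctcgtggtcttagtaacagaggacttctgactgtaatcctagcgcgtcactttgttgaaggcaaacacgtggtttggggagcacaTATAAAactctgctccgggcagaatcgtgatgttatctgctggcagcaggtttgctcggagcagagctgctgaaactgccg
Acvr1b, chr15:101173822-101174121, plus strand: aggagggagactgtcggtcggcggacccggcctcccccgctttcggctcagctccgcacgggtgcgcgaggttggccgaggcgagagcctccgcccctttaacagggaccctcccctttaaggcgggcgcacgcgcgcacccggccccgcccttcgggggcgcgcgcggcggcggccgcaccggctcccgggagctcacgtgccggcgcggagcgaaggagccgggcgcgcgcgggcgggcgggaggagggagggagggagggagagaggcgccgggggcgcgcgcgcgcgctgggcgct
Acvr1, chr2:58566779-58567078, minus strand: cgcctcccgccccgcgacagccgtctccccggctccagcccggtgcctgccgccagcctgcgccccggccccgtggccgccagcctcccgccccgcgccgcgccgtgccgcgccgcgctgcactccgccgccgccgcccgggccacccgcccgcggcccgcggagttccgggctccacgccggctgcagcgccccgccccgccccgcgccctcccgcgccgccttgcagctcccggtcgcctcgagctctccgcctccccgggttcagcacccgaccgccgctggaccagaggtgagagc
Both strands were searched for CAGACA, the palindromic SMAD element GTCTAGAC, the AP-1 element TGANTCA, the cyclic AMP response element TGACGTCA, the RUNX element ACCACA and TATAAA. The Tgfb2 window held 1 CAGACA, starting 204 bases before the start site, and a TATAAA starting 31 bases before it, with no overlap between them. The windows of Tgfb1, Acvr1b and Acvr1 held none of the 6 motifs. For Acvr1 the RefSeq start used (58566828) lies inside the GENCODE span, which begins at 58567157 on the minus strand. The end of its window was not found in a GENCODE transcript of the gene, so bases before the GENCODE start were not searched. Of 32851 windows of the same length in the table, 21% hold CAGACA, 13.6% TATAAA, 16.8% ACCACA, 7.81% TGANTCA, 1.79% TGACGTCA and 0.213% GTCTAGAC. The Tgfb1, Acvr1b and Acvr1 windows were rich in G and C (77%, 79.7% and 83.7%, against a median of 52.7% over all windows), and the Tgfb2 window was at 54.3%. Among the genes that did not rise by as much, the windows of Tgfbr2, Acvr2a and Bmpr2 held no match, and of the 2 windows of Tgfbr1 the downstream one held a single CAGACA. A match is a description of letters and not evidence of binding.

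SIS3+TGFb versus TGFb asked what the Smad3 inhibitor did on top of TGF-β1, which both groups had. Acvr1 and Acvr1b rose, Tgfbr1 fell and the other 7 genes did not pass, where 41.8% of all genes tested changed, 21.2% upwards and 20.6% downwards. The ligands stayed near their TGFb levels. For Tgfb1 the interval of the change ran from 0.927-fold to 1.04-fold (log2 -0.03 ± 0.0386, adjusted p = 0.6 by edgeR), for Tgfb3 from 0.713-fold to 1.1-fold (log2 -0.18 ± 0.146, adjusted p = 0.36), and for Tgfb2 from 0.763-fold to 1.52-fold (log2 0.11 ± 0.233, adjusted p = 0.75). Tgfb3 was nevertheless among the 4 genes whose libraries did not overlap, a pattern seen for 51.4% of all genes tested, with all SIS3+TGFb libraries below the TGFb libraries.

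The receptor changes in this step were small. Acvr1b rose 1.22-fold (95% interval 1.06 to 1.41, log2 0.29 ± 0.0973, adjusted p = 0.026 by edgeR) and Acvr1 1.16-fold (95% interval 1.04 to 1.29, log2 0.21 ± 0.0725, adjusted p = 0.027), both away from their Ctrl levels. Tgfbr1 fell to 0.898 of its TGFb level (95% interval 0.827 to 0.974, log2 -0.16 ± 0.0552, adjusted p = 0.033), towards its Ctrl level. Without scaling factors the change of Tgfbr1 was -0.07 (adjusted p = 0.34), and its call was also lost without TGFb replicate 2 (0.1) or 3 (0.066) or SIS3+TGFb replicate 1 (0.056) or 2 (0.12). None of these 3 calls was kept by DESeq2 (adjusted p = 0.062, 0.15 and 0.074), which called 0 of the 10 genes in this comparison although 3 had an unadjusted p below 0.05, against 4 in edgeR. Leaving out replicate 3 of both treated groups also ended the calls of Acvr1b (adjusted p = 0.11) and Tgfbr1 (0.065), and Acvr1 alone was then called. Acvr1 in turn was not called without TGFb replicate 1 (adjusted p = 0.089), TGFb replicate 2 (0.096) or SIS3+TGFb replicate 2 (0.11), nor Acvr1b without TGFb replicate 1 (0.065), TGFb replicate 3 (0.095) or SIS3+TGFb replicate 1 (0.11). In the same step Tgfbr2 stood at log2 -0.08 ± 0.0442 (adjusted p = 0.18), Bmpr2 at -0.07 ± 0.0657 (0.43), Acvr2a at -0.37 ± 0.189 (0.13) and Tgfbr3 at 0.53 ± 0.234 (0.082). Without TGFb replicate 1 the value of Acvr2a was -0.10. Tgfbr3 was called higher with no scaling factors (0.61, adjusted p = 0.049) and without SIS3+TGFb replicate 3 (0.68, 0.034).

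SIS3+TGFb versus Ctrl compared cells given both agents with untreated cells, and shares libraries with both comparisons above. Of the 10 genes 6 rose and 1 fell, where 53.9% of all genes tested changed, 29% upwards and 24.9% downwards. Libraries did not overlap for 8 of the 10, against 61.1% of all genes tested. Tgfb3 was 11.3-fold higher than in Ctrl (95% interval 8.11 to 15.8), Tgfb2 3.52-fold (2.3 to 5.37), Acvr1b 3.21-fold (2.72 to 3.79), Tgfb1 2.23-fold (2.11 to 2.37), Acvr1 2.03-fold (1.81 to 2.28) and Bmpr2 1.16-fold (1.05 to 1.28), with adjusted p from 1.6e-12 for Tgfb1 to 0.015 for Bmpr2 by edgeR. The rise of Bmpr2 did not pass in DESeq2 (adjusted p = 0.11) or without SIS3+TGFb replicate 1 (0.079). Set beside these, the values in TGFb versus Ctrl were 12.8, 3.27, 2.63, 2.28, 1.75 and 1.21.

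The gene that fell was Acvr2a, which stood at 3.72, 4.71 and 3.77 CPM in SIS3+TGFb, below every Ctrl library (0.683 of Ctrl, 95% interval 0.52 to 0.899, log2 -0.55 ± 0.185, adjusted p = 0.02 by edgeR). The levels of the activin receptor pair lay further apart in the treated groups than in Ctrl. The ratio of Acvr1b to Acvr2a per kb was 1.4 to 1.7 in Ctrl, 3.43 to 5.99 in TGFb and 5.83 to 8.52 in SIS3+TGFb. Tgfbr2 lay at the threshold in this comparison (log2 -0.11 ± 0.0441, adjusted p = 0.053), and was called lower in 8 of 16 alternatives, among them RLE factors (adjusted p = 0.029) and DESeq2 (0.016), while Tgfbr1 did not pass (0.11 ± 0.0562, 0.099). The fall of Acvr2a did not pass without Ctrl replicate 2 (adjusted p = 0.072), without SIS3+TGFb replicate 1 (0.073) or without SIS3+TGFb replicate 3 (0.057).

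**Figure D3:**
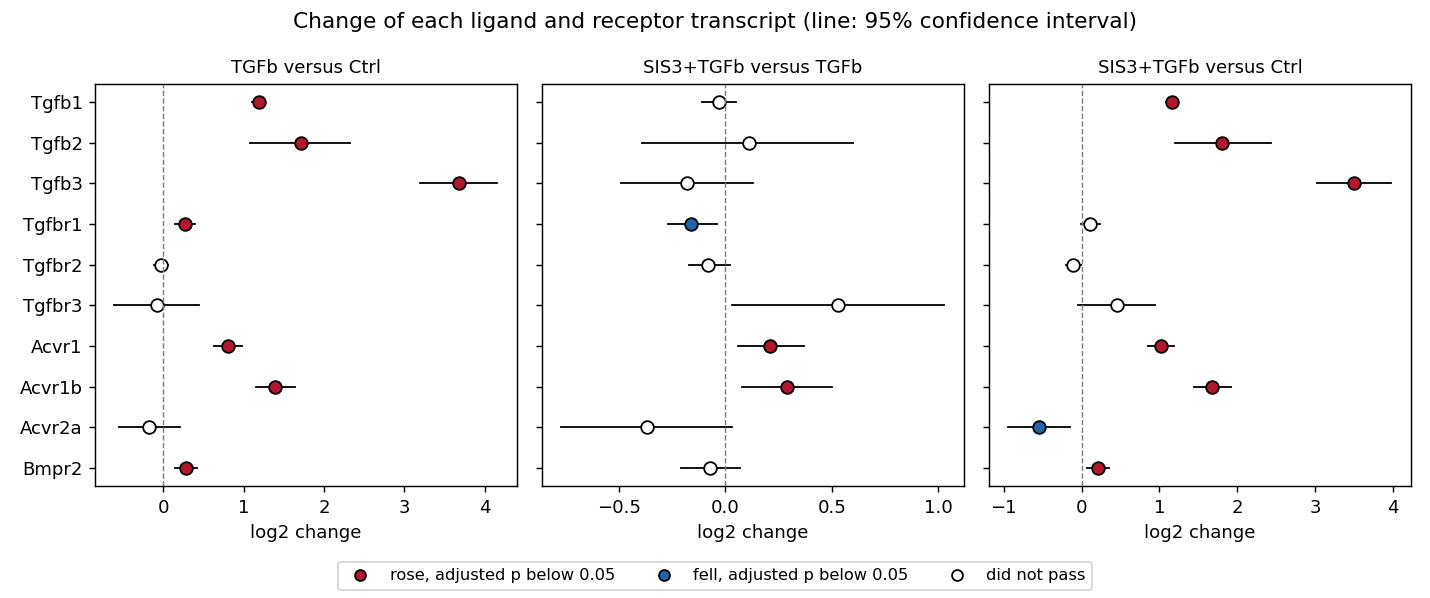
Log2 change of each of the 10 genes in the 3 comparisons, with lines for the 95% confidence interval and the horizontal axes on different scales. Red and blue points rose or fell at an adjusted p below 0.05 and white points did not pass. The ligands reach 1.19 to 3.68 in TGFb versus Ctrl, while all points of SIS3+TGFb versus TGFb lie between -0.37 and 0.53.

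The order of levels shifted accordingly. In TGFb it ran Tgfb1 (393 ± 12.5 CPM per kb), Tgfbr2 (54.3 ± 1.48), Tgfbr1 (7.81 ± 0.242), Acvr1 (5.86 ± 0.335), Acvr1b (4.24 ± 0.456), Tgfb3 (2.06 ± 0.205), Bmpr2 (1.77 ± 0.0634), Acvr2a (0.922 ± 0.271), Tgfbr3 (0.539 ± 0.0904) and Tgfb2 (0.48 ± 0.146), and only Tgfbr3 and Tgfb2 overlapped as neighbours. Tgfb3 thus stood sixth, where it had been ninth in Ctrl. In SIS3+TGFb the ranges of Tgfbr1 (6.75 to 7.14 CPM per kb) and Acvr1 (6.6 to 7.11 CPM per kb) overlapped as neighbours in the order. So did Tgfb3 and Bmpr2, and Tgfbr3 and Acvr2a. With the union of exons as length, Acvr1b came before Acvr1 in both treated groups and Acvr2a before Bmpr2 in Ctrl. The SIS3+TGFb means of Tgfbr1 (6.17 CPM per kb) and Acvr1 (4.63) then lay further apart, as did those of Tgfb3 (1.82) and Bmpr2 (1.21). Those of Tgfbr3 (0.727) and Acvr2a (0.715) stayed close. The nearness of Acvr1 to Tgfbr1 thus depends on the length used.

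Across the 9 libraries, the log2 CPM of Tgfb1 followed that of Pmepa1, a feedback inhibitor of the pathway, and Tmem59 with a Pearson r of 0.999 each. These genes differed widely in the size of their rise with TGF-β1, at log2 7.69 and 0.74, against 1.19 for Tgfb1. The closest to Tgfb3 was Flt3l (r = 0.997), which encodes the growth factor that was added in the first days of culture and rose by log2 1.08. The closest to Acvr1b was Nt5c2 (r = 0.995), a nucleotidase, followed by Blcap and Tbc1d16, and the closest to Acvr1 were Fam214a (r = 0.996), Rassf6 and Cemip2. Tgfb2 was closest to Pdlim5 (r = 0.997), Bmpr2 to Rpain (0.981), Tgfbr2 to Grpel2 (0.961), Tgfbr1 to Nup88 (0.954), Acvr2a to Ywhae (0.939) and Tgfbr3 to Klhl15 (0.928). These values describe 9 points that share 3 treatments, over 10443 genes searched. Of those, 455 had an r over 0.95 with Tgfb1, 405 with Acvr1, 321 with Acvr1b and 368 with Tgfb3, but 2 with Tgfbr1, 1 with Tgfbr2 and 0 with Acvr2a or Tgfbr3.

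The other genes of the pathway were followed as 6 lists by role, 105 genes in all, of which 83 were in the table and 53 were tested. In TGFb versus Ctrl 18 of the 53 rose, 9 fell and 26 did not pass, where 34.3% of all genes tested changed, with a median log2 change of -0.04 against 0 over all genes tested. In SIS3+TGFb versus TGFb 11 rose, 14 fell and 28 did not pass, where 41.8% of all genes changed (median 0.02 against 0.01), and in SIS3+TGFb versus Ctrl 18 rose, 12 fell and 23 did not pass, where 53.9% of all genes changed (median 0.06 against 0.02).

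Among 4 other ligands tested, Inhba alone changed, against 34.3% of all genes tested in TGFb versus Ctrl and 53.9% in SIS3+TGFb versus Ctrl. Its product forms activin A, the ligand of ACVR2A and ACVR1B. It stood at 1.32, 2.4 and 2.01 CPM in Ctrl, 4, 3.84 and 3 CPM in TGFb, and 3.78, 4.82 and 7.02 CPM in SIS3+TGFb, with no overlap between Ctrl and the treated libraries. It rose by log2 0.92 ± 0.268 with TGF-β1 (adjusted p = 0.014 by edgeR) and was at 0.52 ± 0.229 in SIS3+TGFb versus TGFb (adjusted p = 0.08). The rise with TGF-β1 was not called without Ctrl replicate 1 (0.71, adjusted p = 0.07) or TGFb replicate 1 (0.84, 0.054). Its highest value was in SIS3+TGFb replicate 3, the library with 1479 CPM of macrophage and monocyte markers, and without replicate 3 of both treated groups the SIS3+TGFb versus TGFb value was 0.13. Gdf11, Gdf15 and Bmp7 did not pass in any comparison, nor did the receptors Acvrl1 and Bmpr1a or the endothelial coreceptor Eng (10.8 ± 2.19 CPM in Ctrl and 8.66 ± 2.31 in TGFb).

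Genes that process and release the latent ligand changed in both directions. With TGF-β1, 4 of the 9 tested rose and 2 fell, against 17.9% and 16.4% of all genes tested. With SIS3 added, 0 rose and 5 fell, against 21.2% and 20.6%. Furin, the protease that cuts the TGF-β1 precursor, stood at 246, 225 and 233 CPM in Ctrl, 322, 333 and 351 CPM in TGFb, and 235, 229 and 226 CPM in SIS3+TGFb. It rose by log2 0.52 ± 0.0414 with TGF-β1 (adjusted p = 6.6e-08 by edgeR) and was lower by -0.54 ± 0.0414 in SIS3+TGFb versus TGFb (7.1e-08), so that the SIS3+TGFb libraries lay within the Ctrl range. Thbs1, a matrix protein that can activate latent TGF-β, rose with TGF-β1 (log2 1.20 ± 0.182, adjusted p = 7.6e-05) and fell in SIS3+TGFb versus TGFb (-1.04 ± 0.178, 0.00024). Itgav, a subunit of the integrins that free TGF-β, rose by 0.42 ± 0.05 and then fell by 0.22 (SE 0.0498). Nrros, which anchors latent TGF-β1 on myeloid cells, fell in both, from 76.9 ± 1.09 CPM in Ctrl to 56 ± 2.01 in TGFb and 39.4 ± 1.54 in SIS3+TGFb. The anchor Lrrc32 (GARP) fell with TGF-β1 (log2 -1.40 ± 0.458, adjusted p = 0.026), from 21 to 37 counts in Ctrl to 14, 15 and 1 in TGFb. The 1 count was in TGFb replicate 3, where megakaryocyte and platelet markers stood at 12.7 CPM, and without that library the change was -0.91 (adjusted p = 0.056). Without Ctrl replicate 3 it was -1.12 (0.13), and with the replicate number as a block it was -1.41 (0.051). Ltbp3, which binds latent TGF-β and was listed with the coreceptors and ligand traps, did not pass with TGF-β1 (0.09 ± 0.05) and fell by 0.35 (SE 0.0505) in SIS3+TGFb versus TGFb. Itgb8 was not among the 16876 genes counted and so was not analysed.

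The SMADs carry the signal of these receptors. With TGF-β1, 3 of the 7 tested rose and 0 fell, against 17.9% and 16.4% of all genes tested. Those that rose were Smad3 (log2 1.18 ± 0.155, adjusted p = 1.7e-05 by edgeR) and the inhibitory Smad7 (1.92 ± 0.102, 4.7e-10) and Smad6 (1.47 ± 0.313, 0.0016), while Smad2 (-0.13 ± 0.0488) and the common Smad4 (-0.05 ± 0.0512) did not pass. Smad2 was at an adjusted p of 0.055 and was called lower with RLE factors (adjusted p = 0.046), upper-quartile factors (0.012) and no scaling factors (0.027). With SIS3 added, 4 rose and 1 fell, against 21.2% and 20.6% of all genes tested. Smad3 fell from 9.75 ± 0.591 to 5.61 ± 0.824 CPM, and Smad1, Smad2, Smad4 and Smad7 rose, by log2 0.76, 0.19, 0.18 and 0.25. Of these the rises of Smad4 and Smad7 did not pass in DESeq2 (adjusted p = 0.071 and 0.065), and that of Smad7 was not called without TGFb replicate 1 (0.1) or SIS3+TGFb replicate 1 (0.099) or 2 (0.079).

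Regulators of the receptors included the largest rise of any list. With TGF-β1, 10 of the 25 tested rose and 7 fell, against 17.9% and 16.4% of all genes tested. With SIS3 added, 7 rose and 7 fell, against 21.2% and 20.6%. Pmepa1 (log2 7.69 ± 0.103) and Ldlrad4 (2.98 ± 0.0748), which keep SMADs from the receptor, rose, as did Ube2o (2.19 ± 0.0469), a ubiquitin-conjugating enzyme. Cav1, the coat protein of caveolae, rose by 1.62 ± 0.58 (adjusted p = 0.042 by edgeR) from 2 to 7 counts per Ctrl library to 6 to 19 in TGFb, and its libraries overlapped. It was not called in DESeq2 (adjusted p = 0.059) or without Ctrl replicate 1 (0.1), Ctrl replicate 2 (0.15), TGFb replicate 1 (0.17) or TGFb replicate 2 (0.096). Ppp1r15a, a phosphatase subunit that the integrated stress response induces and that also acts on the type I receptor, stood at -0.14 ± 0.0536 with TGF-β1 (adjusted p = 0.049, and 0.056 to 0.13 with any 1 library left out) and rose in SIS3+TGFb versus TGFb from 31.5 ± 0.764 to 71.1 ± 3.18 CPM (1.17 ± 0.05, 9.2e-11). Tgfbr3l, a gene related to Tgfbr3, rose in the same step (1.25 ± 0.473, adjusted p = 0.045) on 6 to 24 counts per library, a call that no leave-one-out kept (adjusted p = 0.051 to 0.13).

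**Figure D4:**
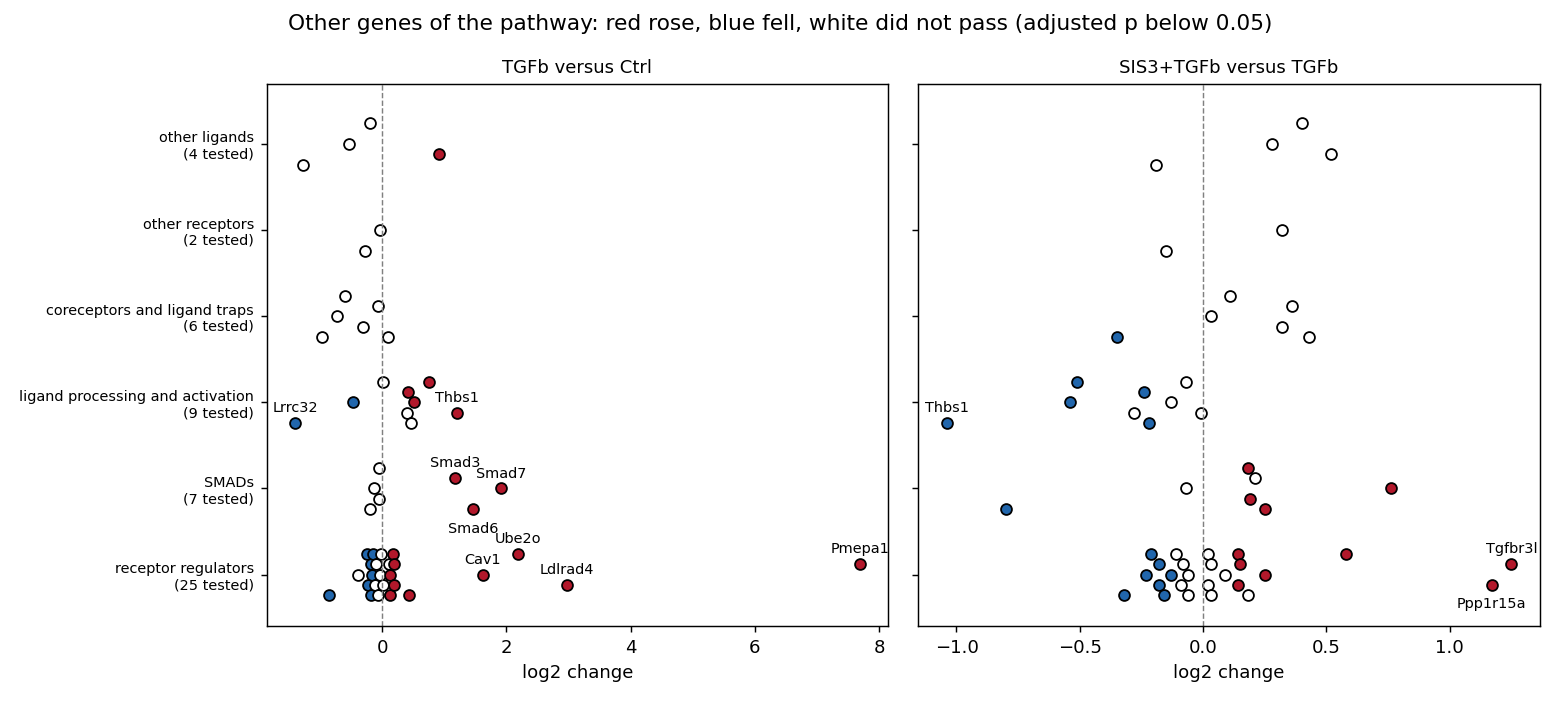
Log2 change of the 53 other pathway genes tested, 1 point per gene in rows by role, for TGFb versus Ctrl (left) and SIS3+TGFb versus TGFb (right), with horizontal axes on different scales. Red points rose and blue points fell at an adjusted p below 0.05, and names mark changes of at least 1. On the right no gene of ligand processing and activation rose and 5 of 9 fell.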

How the data were processed

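The authors deposited expected counts, unscaled estimates of reads per gene, with a column for each of 9 libraries. RSEM, Bowtie2, HISAT2, StringTie, Cufflinks and DESeq2, and the builds mm10 and GRCm38, appear in the submitters' processing notes, but no source used here gives their roles, versions or annotation. Counts were rounded, filtered with filterByExpr of edgeR 4.0.16 (minimum count 10, minimum total 15), scaled with TMM factors and fitted in 1 quasi-likelihood model of all 9 libraries with 1 mean per group (R 4.3.3). P-values are two-sided and adjusted by Benjamini-Hochberg over 12212 genes. The SE was derived from the log2 change and its F statistic, and intervals are 95%. Same-group libraries differed by 1.63 to 5.85 times the Poisson variance, so no library was a copy.

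The genes and lists were chosen with earlier results of these data known. All 10 genes are named, with listed pathway genes past the test and at least 1 log2 unit and 14 fixed by name, and the 3 genes most alike to each by Pearson r of log2 CPM (prior count 2), of which 1 is not reported here. Gene spans and lengths come from GENCODE M21 on GRCm38, and promoters from RefSeq on GRCm38.p6. Alternatives were other scaling factors, no filter, DESeq2 1.42.0, limma voom 3.58.1, 2 groups per fit, unrounded counts, the replicate number as a block and each library left out. Transcript length was added after seeing the data, as were leaving out replicate 3 of both treated groups and the same alternatives for single pathway genes.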

Additional observations from a re-analysis of the deposited data

How the results depend on the processing

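Each of 30 results (10 genes in 3 comparisons) was recomputed under 16 alternatives, and 15 kept their call and direction under all of them. In TGFb versus Ctrl all 7 rises kept their call, and the number of changed genes was 7 under every alternative. In SIS3+TGFb versus TGFb the number was 3 in the main analysis, 0 in DESeq2, 1 to 4 with 1 library left out and 1 without replicate 3 of both treated groups. Replicates 1, 2 and 3 of TGFb and replicates 1 and 2 of SIS3+TGFb each took it to 1 when left out. In SIS3+TGFb versus Ctrl it was 5 to 8 with 1 library left out, with 5 without SIS3+TGFb replicate 1. The other pathway genes changed numbered 21 to 25, 19 to 23 and 28 to 31 with 1 library left out, in the order TGFb versus Ctrl, SIS3+TGFb versus TGFb and SIS3+TGFb versus Ctrl.

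Directions turned only where no call was made. Without scaling factors, which moves the median of all genes in SIS3+TGFb versus TGFb from 0.01 to 0.1, Tgfb1 was at 0.06, Tgfbr2 at 0.01 and Bmpr2 at 0.01, and the calls of all genes were 71.1% higher against 50.6%. In SIS3+TGFb versus Ctrl that share was 63.8% against 53.8%, and with upper-quartile factors 41.3% against 52.2% in TGFb versus Ctrl. In TGFb versus Ctrl, Tgfbr2 was at 0.01 without Ctrl replicate 1, and Tgfbr3 at 0.08 without Ctrl replicate 1, 0.03 without Ctrl replicate 3, and 0 without TGFb replicate 3 or replicate 3 of both treated groups. In SIS3+TGFb versus TGFb, Tgfb2 was at -0.08 without TGFb replicate 1 and -0.01 without SIS3+TGFb replicate 2. Over all single libraries left out these ran from -0.05 to 0.01 for Tgfbr2, from -0.32 to 0.08 for Tgfbr3 and from -0.08 to 0.36 for Tgfb2. The cause was not tested. Of 30 values of named pathway genes 21 kept their call under every alternative and 0 changed direction; Cav1 did not pass the count filter in a fit of TGFb and Ctrl only and has no value there.

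The replicate numbers gave no clear sign of pairing. Same-numbered libraries had correlated deviations of -0.15 to 0.13, over 0.1 in 2 of 9 pairs. In 5 of 18 cases a library correlated best with its own number. With 3 libraries per group this check cannot exclude pairing. With the replicate block 7, 3 and 7 of the 10 genes and 23, 22 and 29 other pathway genes changed, in the same order of comparisons. Low counts limit Tgfb2, Tgfb3 in Ctrl and Tgfbr3.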
